A study of Bos taurus with 20 samples.

Results

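Heat shock genes of the cytosol and the mitochondrion were followed in the cells of the bovine ovarian follicle. The 10 genes were HSPA8, HSPA4, HSPH1 and DNAJB1 of the HSP70 machinery, HSP90AA1 and HSP90AB1, the small heat shock gene HSPB1, the mitochondrial pair HSPD1 and HSPE1, and the transcription factor HSF1. They were chosen by name, as every non-control probe of the array whose gene name, without its transcript number, was one of these 10, which gave 24 of 61325 probes and 10 of 22550 genes. They were measured on 20 arrays in 5 groups of 4, each array with 200 ng of total RNA from bovine follicles of 3 to 6 mm, whose ovaries came from slaughtered cattle. The groups were theca cells (TH, scraped from the follicle wall), granulosa cells (GC), cumulus cells (CC, which surround the oocyte), immature oocytes, and CC taken 4 h into in vitro maturation (IVM). TH, GC, CC and oocytes were labelled immature, no other agent was named for any group, and breed and age of the animals and the number of cells in a sample are not given in the sources used here. The replicates were biological according to the study's methods. In these bulk samples, fewer cells of a type and less RNA per cell cannot be told apart.

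Heat shock proteins are chaperones that bind unfolded or newly made proteins. HSP70 proteins such as HSPA8 bind short stretches of a client with the help of J-domain proteins such as DNAJB1 and of exchange factors such as HSPH1 and HSPA4, and HSP90 proteins then act on clients that are closer to their folded state. HSPD1 and HSPE1 form the folding chamber of the mitochondrial matrix, HSPB1 holds unfolded proteins without ATP, and HSF1 is the factor that switches on most of these genes under stress.

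Gene expression values are given here on the log2 scale relative to the 75th percentile of each array, so that a value of 1 is a signal 2 times that percentile. They serve to compare one gene between samples, since levels of different probes are not comparable. On an array, between 49.3% and 68.8% of probes were well above background, and oocyte replicate 2 had the lowest share. The labels were checked against marker genes. The summed signal of 5 theca markers, in units of the 75th percentile, was 575 to 830 in TH and at most 115 in any other array. The summed signal of 7 oocyte markers was 276 to 363 in the oocyte and at most 3.17 elsewhere. That of 5 granulosa and cumulus markers was 352 to 900 in GC, 752 to 825 in CC and 150 to 269 in TH. This list thus did not tell GC from CC, and its signal was lower in TH but present. All 10 genes were well above background on all 20 arrays, and no spot of theirs was saturated or marked as an outlier.

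The main pattern across cell types was a split between oocyte and somatic cells, with little difference among TH, GC and CC. Against the mean of the 3 somatic cell types, the oocyte had less HSPB1, HSP90AB1, HSPD1, HSPA8, HSPE1 and HSP90AA1 message, and more DNAJB1, HSPH1 and HSF1 message, although HSP90AA1 turned its direction with quantile normalization and with the deposited values. The largest of these differences was that of HSPB1, which was 89.1-fold lower by a gene value that rests on overlapping probes. Which locus the probes named HSP90AB1 read was not settled. By limma's F-test over the 4 cell types, 9 of 10 genes differed (adjusted p under 0.05), against 71.3% of all genes tested. In the contrast of the oocyte, 6 of 10 were lower, against 38.3% of all genes, and 3 of 10 were higher, against 32.9%. The share that was higher is near that of all genes. All 4 oocyte arrays lay below all 12 somatic arrays for the same 6 genes (20.6% of all genes) and above them for the same 3 (25.3%).

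The count of 6 lower and 3 higher rests partly on how arrays were made comparable. The median difference of all genes was -0.52 with the 75th percentile, and -0.14 among the 11362 genes above background in every group. Relative to the median of all genes, HSP90AA1 differed by only -0.03, whereas HSPB1 differed by -5.96, HSP90AB1 by -1.83, HSPD1 by -1.28, HSPA8 by -0.57 and HSPE1 by -0.50. On the same footing DNAJB1 was 2.33 above the median of all genes, HSPH1 1.56 and HSF1 1.37. Relative to the genes above background in every group, HSP90AA1 differed by -0.42, HSPB1 by -6.34 and HSP90AB1 by -2.21. By that reference HSPD1 differed by -1.66, HSPA8 by -0.95 and HSPE1 by -0.89. DNAJB1 was 1.95 above it, HSPH1 1.18 and HSF1 0.99. With quantile normalization 5 genes were lower and 5 higher, and with the deposited values 4 were lower and 4 higher.

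**Figure D1:**
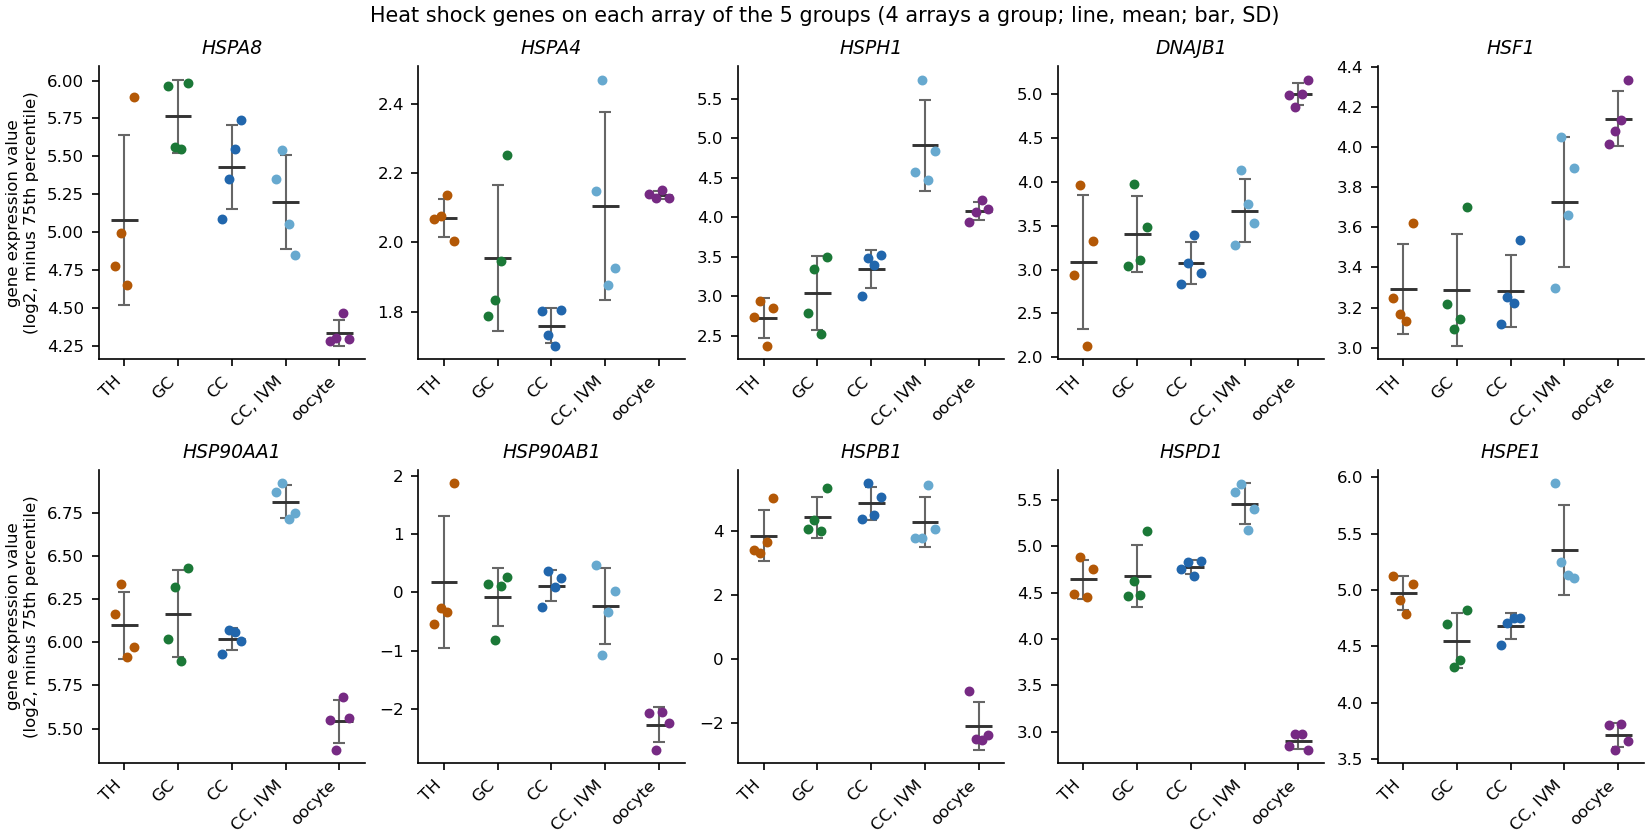
Gene expression value (log2, relative to the 75th percentile of the array) of the 10 heat shock genes, with 1 panel a gene, 1 point an array, a line at the mean and a bar of 1 SD for 4 arrays in each of 5 groups. The oocyte points lie apart from the TH, GC and CC points in every panel but that of HSPA4, and TH replicate 4 stands above the other TH arrays for HSP90AB1, at 1.88.

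HSPA8 encodes the constitutive cytosolic HSP70. Its values were 4.78, 5.0, 4.65 and 5.89 in TH, 5.96, 5.56, 5.55 and 5.99 in GC, and 5.09, 5.35, 5.55 and 5.74 in CC. In the oocyte they were 4.28, 4.30, 4.47 and 4.30. All oocyte arrays lay below the lowest somatic array, that of TH replicate 3. The difference from the somatic mean was -1.09 ± 0.20 (SE, n = 4 arrays a group, adjusted p = 0.000129), which is 2.13-fold lower, but with the deposited values it was -0.43 (adjusted p = 0.0799).

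Both HSPA8 probes gave this result, at -1.13 and -1.05, but they are not independent readings, since they overlap. They are printed here because a pair of probes that share sequence measures the same piece of the message, and the capitals mark the run of 34 bases that both hold.
HSPA8-201 probe 1: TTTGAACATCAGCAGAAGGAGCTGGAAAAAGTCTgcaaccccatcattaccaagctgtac
HSPA8-201 probe 2: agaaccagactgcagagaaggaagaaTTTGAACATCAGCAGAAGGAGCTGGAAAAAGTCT
Both belong to the transcript at chr15:34216278-34220705 of the array's genome build, UMD 3.1.

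DNAJB1, an HSP40 that delivers clients to HSP70 and stimulates its ATPase, went the other way. It was at 2.94, 3.96, 2.13 and 3.33 in TH, at 3.04, 3.98, 3.1 and 3.49 in GC, and at 2.84, 3.08, 3.39 and 2.97 in CC. The 4 oocyte arrays were at 4.99, 4.85, 5.0 and 5.16. The lowest oocyte array thus lay above the highest somatic array, although the TH arrays spread widely (SD 0.76). The oocyte was higher by 1.81 ± 0.25 (adjusted p = 9.67e-06), or 3.51-fold.

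HSPH1, a large HSP70 relative that recharges HSP70 with ATP, was also higher in the oocyte. Its values were 2.73, 2.95, 2.37 and 2.85 in TH, 2.78, 3.35, 2.52 and 3.50 in GC, 3.00, 3.48, 3.40 and 3.53 in CC, and 3.94, 4.07, 4.22 and 4.10 in the oocyte. The oocyte arrays lay above all somatic arrays, while TH, GC and CC overlapped one another. The difference was 1.05 ± 0.18 (adjusted p = 6.87e-05), or 2.06-fold.

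For HSPA4, a second exchange factor of the same family, the 2 probes disagreed, and the gene gave no call. Probe 1 was lower in the oocyte by 0.51 on the log2 scale (-0.51 ± 0.10, adjusted p = 0.000252), and probe 2 was higher by 0.92 ± 0.14 (adjusted p = 2.24e-05), in a fit over all 61182 probes with a value on every array that was added after seeing the data. In that fit 35.1% of all probes were lower and 31.1% higher. Probe 1 was at 0.48, 0.44, 0.50 and 0.29 in TH, at 0.04, 0.14, 0.12 and 0.18 in GC, at 0.03, 0.04, -0.11 and -0.10 in CC, and at -0.31, -0.35, -0.28 and -0.39 in the oocyte. Probe 2 was at 3.66, 3.71, 3.77 and 3.72 in TH, at 3.53, 3.52, 3.78 and 4.33 in GC, at 3.57, 3.43, 3.51 and 3.71 in CC, and at 4.59, 4.61, 4.58 and 4.65 in the oocyte. Each probe separated the oocyte from all 12 somatic arrays, in opposite directions. The median of both, which stands for the gene, differed by 0.21 ± 0.11 (adjusted p = 0.0841), and by 0.24 without GC replicate 4 (adjusted p = 0.0277). Both probes are annotated to 1 transcript, at chr7:46228919-46282857, and the sequence of the probe that was higher in the oocyte is given because the gene's direction depends on it.
HSPA4-201 probe 2: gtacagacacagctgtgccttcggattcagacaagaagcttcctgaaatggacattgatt

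HSP90AA1 encodes the inducible cytosolic HSP90. It was at 6.16, 6.34, 5.92 and 5.97 in TH, at 6.02, 6.32, 5.89 and 6.43 in GC, at 5.93, 6.07, 6.06 and 6.01 in CC, and at 5.55, 5.38, 5.68 and 5.56 in the oocyte. The oocyte arrays lay below every somatic array, but by a small margin. The difference was -0.55 ± 0.13 (adjusted p = 0.00102), and its direction was not stable: it was 0.63 with quantile normalization (adjusted p = 0.00033) and 0.10 with the deposited values (adjusted p = 0.5).

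HSP90AB1, the constitutive cytosolic HSP90, was at -0.54, -0.27, -0.34 and 1.88 in TH, at 0.14, -0.81, 0.11 and 0.26 in GC, at -0.25, 0.36, 0.10 and 0.25 in CC, and at -2.08, -2.70, -2.06 and -2.25 in the oocyte. The oocyte was lower than every somatic array, and TH replicate 4 stood far above the other TH arrays. The difference from the somatic mean was -2.35 ± 0.35 (adjusted p = 1.83e-05), which is 5.09-fold lower.

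The 2 probes named HSP90AB1 are annotated by the array to a transcript at chrX:130065242-130067460, which spans 2219 bases. In the RefSeq table of the assembly ARS-UCD2.0, HSP90AB1 lies between SLC29A1 and SLC35B2. The array has another transcript between these neighbours, ENSBTAT00000001034 at chr23:17867543-17873174, which has no gene name but is described as the beta form of HSP90. It was not among the 10 genes, and no probe of another name on the array shared a run of 20 bases with any of their probes. The probes were compared with other probes only, not with transcript sequences. Whether the HSP90AB1 probes also read the message of the chr23 transcript was therefore not settled. The HSP90AB1 probes are printed because the locus they were designed on bears on what they read, and they are given without capitals since no stretch is singled out.
HSP90AB1-201 probe 1: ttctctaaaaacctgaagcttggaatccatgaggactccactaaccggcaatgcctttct
HSP90AB1-201 probe 2: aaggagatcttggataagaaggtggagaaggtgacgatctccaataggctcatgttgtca

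One probe of the chr23 transcript was above background on 20 arrays. It was at -0.61, -0.30, -0.54 and -0.03 in TH, at -0.19, -0.63, -0.58 and -0.66 in GC, at -0.49, -0.27, -0.32 and -0.66 in CC, and at -1.82, -1.85, -1.77 and -1.84 in the oocyte. It too was lower in the oocyte on every array, by 1.38 on the log2 scale (-1.38 ± 0.13, adjusted p = 2.00e-07). TH replicate 4 did not stand apart for this probe as it did for HSP90AB1. The other probe of the transcript was above background on 4 arrays only.

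HSPB1, the small heat shock protein HSP27, had the largest difference of the 10 genes between oocyte and somatic cells. Its values were 3.41, 3.33, 3.67 and 5.05 in TH, 4.06, 4.34, 4.00 and 5.36 in GC, and 4.40, 5.50, 4.52 and 5.07 in CC. In the oocyte they were -0.98, -2.48, -2.51 and -2.37, so that replicate 1 was above the other oocyte arrays but still far below every somatic one. The difference was -6.48 ± 0.37 (adjusted p = 1.86e-10).

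HSPB1 had 4 probes on 2 annotated transcripts, at chr25:34858435-34861074 and chr25:34858438-34861035. A probe of one transcript and a probe of the other are shown because they overlap and so are not independent readings. They share 53 bases, are shifted against each other at both ends, and differ within the shared stretch by the bases in capitals, which only the first holds.
HSPB1-202 probe 1: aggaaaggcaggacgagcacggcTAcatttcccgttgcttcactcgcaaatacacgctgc
HSPB1-201 probe 2: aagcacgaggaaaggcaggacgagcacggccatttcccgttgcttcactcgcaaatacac
These probes differed between the oocyte and the somatic mean by -6.50 ± 0.39 and -6.46 ± 0.36, a gap far below their errors. They held the middle values of the 4 HSPB1 probes on every array, so the gene value, a median, is set by these 2 overlapping probes alone. HSPB1-202 probe 2 differed by -5.64 ± 0.11 (adjusted p = 5.19e-15) with little spread, at 7.91, 7.73, 8.03 and 7.71 in TH, between 8.40 and 8.67 in GC, between 8.43 and 8.56 in CC, and at 2.69, 2.46, 2.58 and 2.79 in the oocyte. For this probe TH replicate 4 was the lowest TH array, whereas it was the highest for the other 3 HSPB1 probes. For HSPB1-201 probe 1, 2 of 4 oocyte arrays did not exceed background clearly.

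HSPD1 (HSP60) and HSPE1 (HSP10), the chamber and the lid of the mitochondrial chaperonin, lie next to each other on chromosome 2, at chr2:86438979-86449372 and chr2:86449525-86451564, with 152 bases between the annotated transcripts. Both were lower in the oocyte. HSPD1 was at 4.48, 4.89, 4.45 and 4.75 in TH, at 4.46, 4.62, 4.48 and 5.16 in GC, at 4.75, 4.83, 4.68 and 4.83 in CC, and at 2.85, 2.98, 2.98 and 2.81 in the oocyte. HSPE1 was at 5.13, 4.91, 4.79 and 5.05 in TH, at 4.70, 4.31, 4.37 and 4.82 in GC, at 4.52, 4.70, 4.75 and 4.75 in CC, and at 3.80, 3.58, 3.81 and 3.66 in the oocyte. Neither gene's oocyte arrays overlapped the somatic ones. The difference was -1.79 ± 0.14 for HSPD1 (adjusted p = 8.12e-09, 3.47-fold lower) and -1.02 ± 0.12 for HSPE1 (adjusted p = 1.64e-06, 2.03-fold lower).

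The HSPD1 probes also gave a measure of technical error. Those of its 2 annotated transcripts were the same sequences, placed on the array under both names, and the repeated spots differed by at most 0.13 on any of 20 arrays. This is the error between spots of one array only, and the spread between samples was larger, with an SD of up to 0.33 in GC.

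HSF1, which drives transcription of heat shock genes, was at 3.25, 3.17, 3.13 and 3.62 in TH, at 3.22, 3.09, 3.14 and 3.70 in GC, at 3.12, 3.25, 3.22 and 3.54 in CC, and at 4.01, 4.08, 4.13 and 4.34 in the oocyte. The oocyte was higher on every array, by 0.85 ± 0.14 (adjusted p = 5.28e-05), or 1.81-fold. The message of the factor was thus higher in the cell type in which 6 of the 10 genes were lower.

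**Figure D2:**
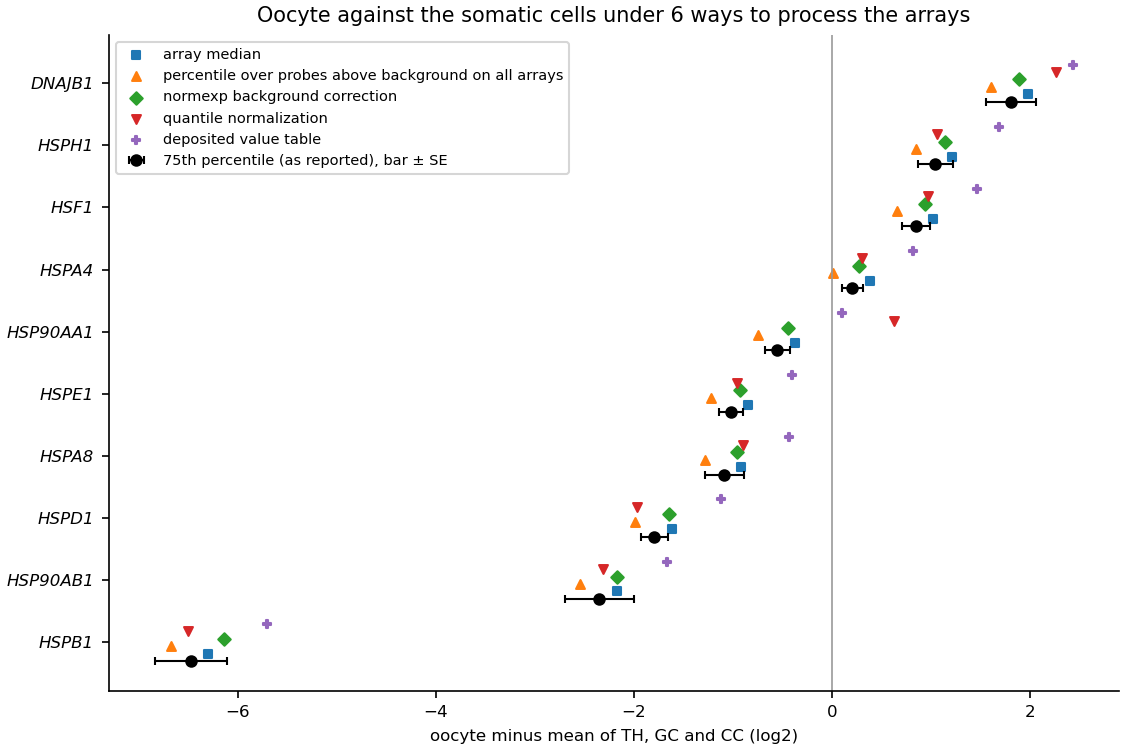
Oocyte minus somatic mean (x axis, log2) for the 10 genes under 6 ways of processing the arrays, with a bar of 1 SE on the reported values. All genes but HSP90AA1 keep their side of 0 under all 6, while HSP90AA1 goes from -0.55 to 0.63 with quantile normalization and 0.10 with the deposited values.

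TH, GC, CC and oocyte replicates 1 and 2 were on one slide and replicates 3 and 4 on another. Within the first slide the oocyte had 6 of the 10 genes lower and 3 higher. Within the second it had 5 lower and 3 higher, and HSP90AA1 had a difference of -0.43 (adjusted p = 0.0888). The share of all genes called in these smaller fits is not given, so the counts describe these 10 genes only.

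Among the somatic cells, few heat shock genes differed by gene value. Between GC and TH it was only HSPA8, higher in GC by 0.68 ± 0.24 (adjusted p = 0.0482), against 26.3% of all genes. HSPE1 just missed the threshold (-0.42 ± 0.15, adjusted p = 0.0518). It passed with quantile normalization (-0.41, adjusted p = 0.0125). With the percentile of probes above background on all arrays HSPE1 passed (-0.54, adjusted p = 0.00758) and HSPA8 did not (0.57, adjusted p = 0.0775). Between CC and TH it was only HSPH1, higher in CC by 0.62 ± 0.22 (adjusted p = 0.0389), against 31.8% of all genes. Single probes gave further differences in the fit over all probes, whose share of calls is not given for these comparisons. HSPB1-202 probe 2 exceeded TH by 0.62 in GC (adjusted p = 0.00319) and by 0.67 in CC (adjusted p = 0.00145), without overlap of arrays. The other HSPB1 probes were not called. HSPA4-201 probe 1 was lower in CC than in TH (-0.46, adjusted p = 0.00756), and probe 2 was not called (-0.16, adjusted p = 0.578). Between GC and CC none of the 10 differed by limma, against 9.88% of all genes, and none at an unadjusted p under 0.05, against 21.6%. The call of HSPA8 was lost on leaving out any GC array, any TH array but replicate 4, any CC array but replicate 1, or any oocyte array but replicate 2, with an adjusted p of up to 0.148. That of HSPH1 was lost on leaving out replicate 1 or 3 of TH, any CC array but replicate 1, or the last oocyte array (replicate 4), with an adjusted p of up to 0.125. Within either slide alone neither gene passed the test. Same-numbered TH and GC arrays deviated together, and with the TH and GC arrays only and the replicate number as a block, HSPA8 was not called (0.68, adjusted p = 0.0698), nor was any other of the 10, against 26% of all genes. HSPA8 was higher in GC and HSPE1 lower (-0.42, adjusted p = 0.0728 in that fit) in each of the 4 same-numbered pairs. Without the block these 8 arrays gave an adjusted p of 0.118 for HSPA8. TH replicate 4 was the highest TH array for HSPA8, HSPB1 and HSP90AB1. Without it, CC exceeded TH by 0.62 for HSPA8 (adjusted p = 0.0173) and by 1.4 for HSPB1 (adjusted p = 0.0179), and 3 genes then differed between CC and TH.

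After 4 h of IVM, HSPH1, HSP90AA1, HSPD1 and HSPE1 were higher in CC than before it, and none of the 10 genes was lower. HSPH1 had the largest difference, 2.95-fold. These are an exchange factor for HSP70, the inducible HSP90 and both parts of the mitochondrial chaperonin. By limma 4 of 10 genes were higher, against 30.3% of all genes tested, and none was lower, against 15.5%. At an unadjusted p under 0.05, 5 were higher, against 37% of all genes, and none was lower, against 18.1%. The shares that were higher were above those of all genes, and the shares that were lower were below them. With 10 genes these gaps are not read as a result about the heat shock genes. All 4 arrays after IVM lay above all 4 CC arrays for 5 genes, these 4 and HSPA4 (29.1% of all genes).

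For HSPH1 the CC arrays given above, at 3.00 to 3.53, stood against 4.58, 5.75, 4.48 and 4.84 after IVM. Every array after IVM was at least as far above the highest CC array as the CC arrays were apart. The difference was 1.56 ± 0.29 (n = 4 arrays a group, adjusted p = 0.00295). Over all 5 groups CC after IVM had the highest HSPH1, the oocyte came next (lower by 0.83, adjusted p = 0.00909, in the fit of 20 arrays) and CC after that (lower by a further 0.73, adjusted p = 0.0213).

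HSP90AA1 was at 6.87, 6.92, 6.72 and 6.75 after IVM, above all CC arrays, at 5.93 to 6.07. The difference was 0.80 ± 0.16 (adjusted p = 0.00501), or 1.74-fold. It was the highest of the 5 groups, above GC by 0.65 (adjusted p = 0.00409). With quantile normalization the difference from CC was 0.24 (adjusted p = 0.25), and with the deposited values 0.34 (adjusted p = 0.00896).

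HSPD1 rose from between 4.68 and 4.83 in CC to 5.58, 5.67, 5.18 and 5.39 after IVM, and HSPE1 from between 4.52 and 4.75 to 5.95, 5.25, 5.13 and 5.11. The differences were 0.68 ± 0.18 for HSPD1 (adjusted p = 0.0167) and 0.68 ± 0.23 for HSPE1 (adjusted p = 0.0352), or 1.60-fold for each. For HSPE1 replicate 1 after IVM stood above the other 3. The call of HSPE1 was lost without CC replicate 1, 2, 3 or 4 (adjusted p between 0.063 and 0.085), and that of HSPD1 without CC replicate 3 (adjusted p = 0.0535). Both were lost with quantile normalization, at 0.28 for HSPD1 (adjusted p = 0.136) and 0.28 for HSPE1 (adjusted p = 0.151). With the deposited values HSPD1 was higher by only 0.26 (adjusted p = 0.0411) and HSPE1 was not called (0.23, adjusted p = 0.213), and with the brightest probe HSPE1 was not called (0.57, adjusted p = 0.0934).

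The other genes did not pass the test. DNAJB1 was at 3.28, 4.13, 3.74 and 3.53 after IVM, a difference of 0.60 ± 0.23 (adjusted p = 0.0578), and only its lowest array fell within the range of CC. HSF1 was at 3.30, 4.05, 3.66 and 3.90, a difference of 0.44 ± 0.22 (adjusted p = 0.115). Without replicate 1 after IVM both were called, DNAJB1 at 0.73 (adjusted p = 0.0339) and HSF1 at 0.59 (adjusted p = 0.04). HSPA4 was at 2.15, 2.47, 1.88 and 1.93, all above the CC arrays, a difference of 0.35 ± 0.19 (adjusted p = 0.162). Here too its probes disagreed: probe 2 was higher by 0.96 ± 0.17 (adjusted p = 0.00352), at 4.66, 4.62, 4.46 and 4.32, and probe 1 had a difference of -0.27 ± 0.24 (adjusted p = 0.382), against 30.7% of all probes higher and 15% lower.

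The remaining 3 genes had negative differences that did not pass the test. HSPA8 was at 5.35, 5.54, 5.05 and 4.85 after IVM, a difference of -0.23 ± 0.23 (adjusted p = 0.423). HSP90AB1 was at 0.47, -1.08, -0.33 and 0.03, a difference of -0.35 ± 0.32 (adjusted p = 0.391), and HSPB1 at 3.80, 3.80, 5.43 and 4.07, a difference of -0.59 ± 0.40 (adjusted p = 0.242). Each of the 3 overlapped with CC. Without replicate 3 after IVM, HSPB1 was lower (-0.98, adjusted p = 0.0252), whereas HSPB1-202 probe 2, which had little spread, differed by 0.24 ± 0.17 (adjusted p = 0.272) with all arrays. With the deposited values all 3 were called lower, HSPA8 by 0.74 on the log2 scale (-0.74, adjusted p = 0.00545), HSP90AB1 (-0.72, adjusted p = 0.0312) and HSPB1 (-1.04, adjusted p = 0.0479), so that 3 genes were higher and 3 lower. With quantile normalization HSPH1 was the 1 gene higher and HSPA8 the 1 gene lower (-0.59, adjusted p = 0.0344).

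**Figure D3:**
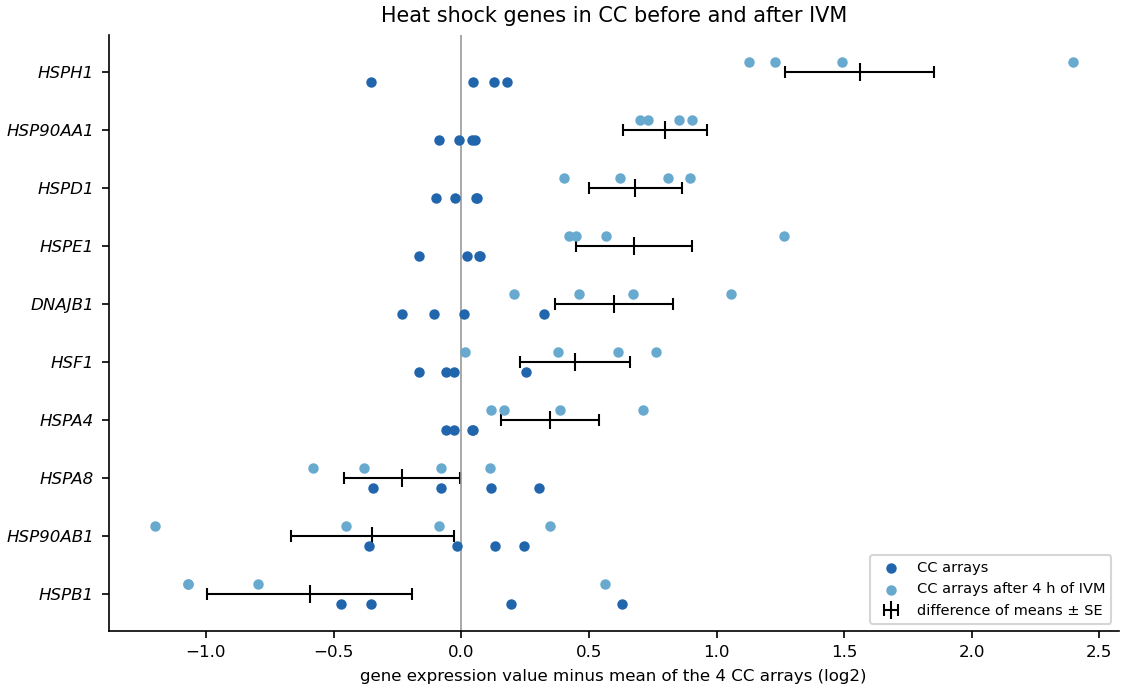
Gene expression value of each array minus the mean of the 4 CC arrays (x axis, log2) for the 10 genes, with CC arrays in dark blue, CC arrays after 4 h of IVM in light blue, and the difference of the means with 1 SE as a black bar. The light points lie above all dark points for HSPH1, HSP90AA1, HSPD1, HSPE1 and HSPA4.

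The comparison of IVM has limits in its design. The 4 arrays after IVM were on a slide of their own and the CC arrays on the 2 others, so slide and IVM cannot be told apart. With slide as a random block 7 of the 10 genes were higher, as were 45.8% of all genes, and the correlation estimated within slides was negative (-0.26). The median difference of all genes was 0.37, and 0.02 among genes above background in every group. Relative to the median of all genes, HSPH1 was higher by 1.19, HSP90AA1 by 0.43, HSPD1 by 0.32 and HSPE1 by 0.31. Relative to the genes above background in every group, HSPH1 was higher by 1.54, HSP90AA1 by 0.78, HSPD1 by 0.67 and HSPE1 by 0.66. Marker lists moved between these samples too. All 5 granulosa and cumulus markers did, with INHBA and INHA higher and FSHR, CYP19A1 and AMH lower, and their summed signal was 752 to 825 in CC and 1240 to 1522 after IVM. Of the endothelial markers 3 of 4 were higher, at 0.0672 to 0.0810 and 0.179 to 0.525 in sum. The summed oocyte markers were 0.591 to 3.17 in CC and 0.171 to 0.576 after IVM (5 of 7 lower), and the immediate early genes 196 to 490 and 136 to 225 (3 of 7 lower). Of the leukocyte and red cell markers 4 of 5 were higher, among them CD68 by 2.15 (adjusted p = 0.00188) and CD14 by 2.33 (adjusted p = 0.043) on the log2 scale. Their summed signal, 24.9 to 47.9 in CC and 30.1 to 46.0 after IVM, overlapped and was mostly that of HBA, the one that was not called. The endothelial marker CDH5 and the leukocyte marker PTPRC were above background on no array of CC or of CC after IVM. The part of these in the results was not tested.

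Set in order over the 5 groups, 8 of the 10 genes had at least 1 step between neighbours that passed the test. For HSPA8, HSP90AB1, HSPB1 and HSPE1 it was the step down to the oocyte, which was 0.74 from TH for HSPA8 (adjusted p = 0.012), 2.04 from CC after IVM for HSP90AB1 (adjusted p = 0.00034), 5.95 from TH for HSPB1 (adjusted p = 7.71e-10) and 0.84 from GC for HSPE1 (adjusted p = 0.000735). HSP90AA1 and HSPD1 had this step, of 0.47 and 1.74, and the step from CC after IVM to the next group, of 0.65 and 0.68. DNAJB1 was highest in the oocyte, by 1.33 over CC after IVM (adjusted p = 0.000755), with no step among the rest. For HSF1 the order was oocyte, CC after IVM, TH, GC and CC, and no neighbours differed (0.41 between the first and the second, adjusted p = 0.0586). For HSPA4 no neighbours differed either. In this fit of 20 arrays, steps to the oocyte passed the test for 64% of all genes from TH, 69.9% from GC, 63.1% from CC and 80.2% from CC after IVM. CC after IVM differed from TH for 43.7% of all genes, from GC for 28.1% and from CC for 35.8%. Among the other pairs, GC and TH differed for 23.7%, CC and TH for 29% and CC and GC for 8.06%.

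Between the members, the profiles of 5 group means were most alike for HSP90AA1 and HSPE1, at a root mean square distance of 0.24 after centring, then for HSPA4 and HSF1 at 0.27 and for HSPD1 and HSPE1 at 0.36. Outside the 10, the nearest of 11352 genes were an unnamed transcript (ENSBTAT00000017585) to HSPA8 at 0.04, ZFR to HSP90AA1 at 0.02, COQ9 to HSP90AB1 at 0.07, ZNF593 to HSPH1 at 0.10 and DNAJB12 to HSPA4 at 0.03. For DNAJB1 it was ENSBTAT00000054166 at 0.04, for HSPB1 SNORD50 at 0.10, for HSPD1 TAF11 at 0.04, for HSPE1 ELOVL1 at 0.07, and for HSF1 ENSBTAT00000064423 at 0.04. With this many genes and 5 means, such a distance describes the profiles only.

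**Figure D4:**
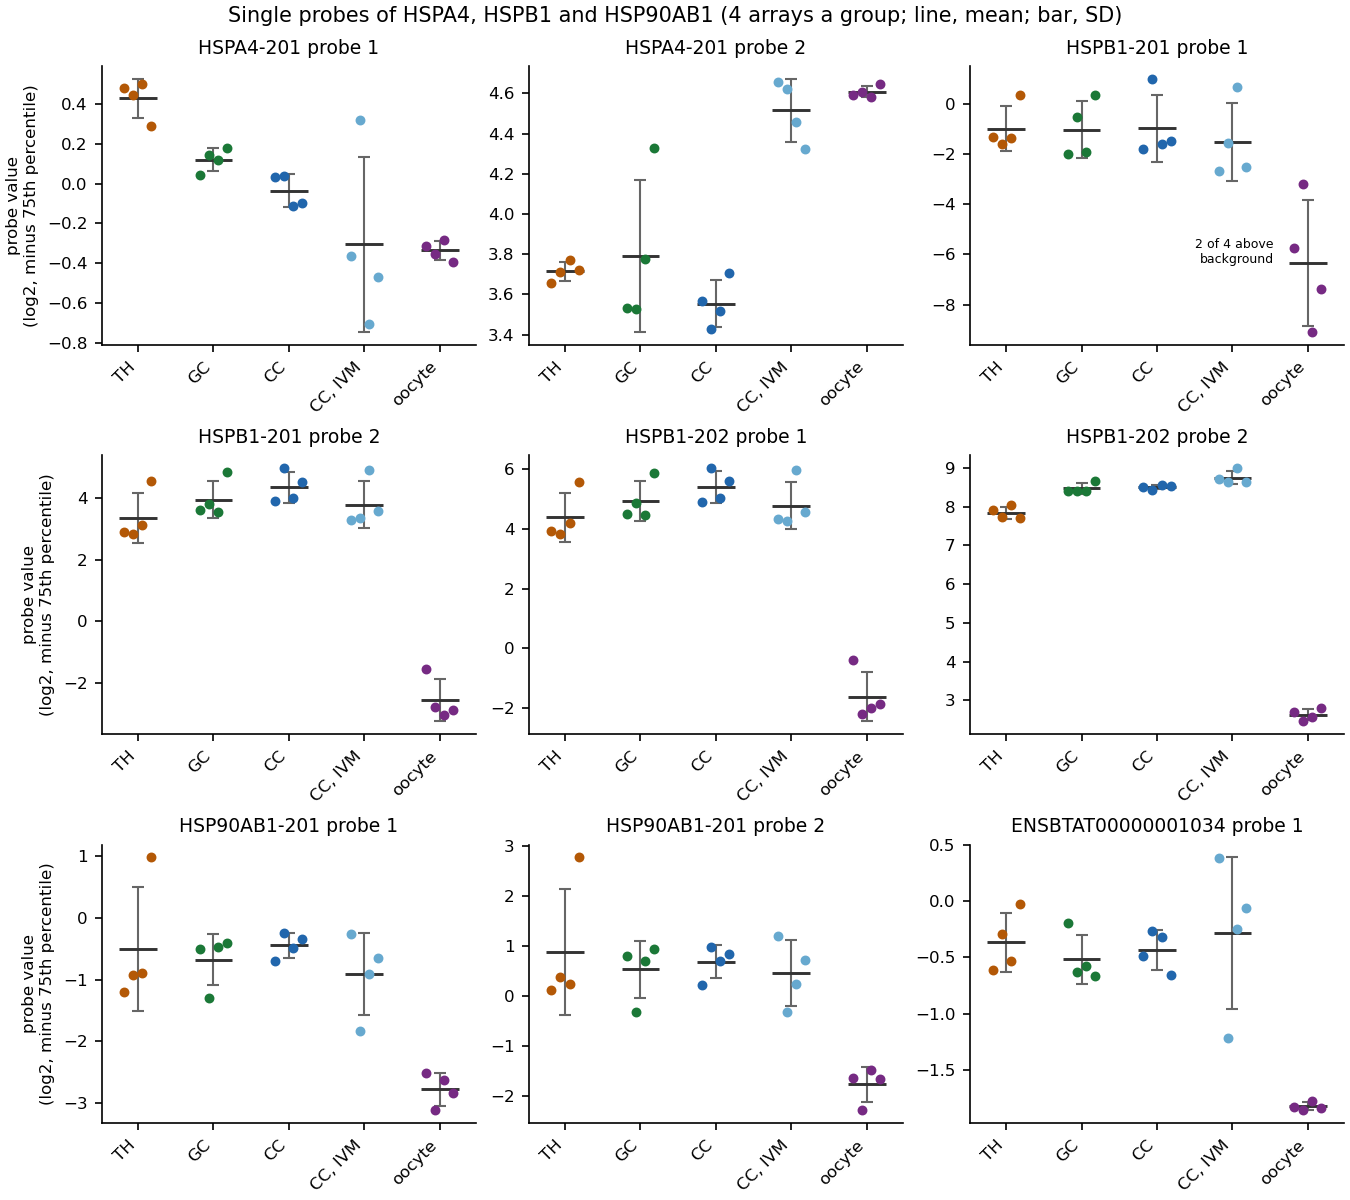
Value of 9 single probes (log2, relative to the 75th percentile of the array), with 1 point an array, a line at the mean and a bar of 1 SD for 4 arrays a group. The HSPA4 probes go in opposite directions in the oocyte (-0.51 and 0.92 from the somatic mean), and all 4 HSPB1 probes and the 3 probes of HSP90AB1 and of ENSBTAT00000001034, the unnamed transcript on chromosome 23, are lower in it.

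Genes that work with these 10 were read beside them as 7 lists of other chaperones, with 77 of 80 genes on the array. In the oocyte 26 of the 77 were lower and 42 higher, against 38.3% and 32.9% of all genes. The share that was lower is near that of all genes. The same 2 shares stand beside the counts of each list in the oocyte. The median difference of the 77 was 0.50, compared with -0.79 over the 10 heat shock genes and -0.52 over all genes. Among the HSP70 co-chaperones, 14 of 20 were higher in the oocyte and 3 lower. DNAJA4, a J-domain protein, was higher by 4.87 (adjusted p = 6.01e-13), and DNAJC6, which uncoats clathrin vesicles with HSP70, was at least 10.5-fold higher, since it was not well above background on any TH, GC or CC array. STUB1, a ubiquitin ligase that binds HSP70 and HSP90, and BAG1, an exchange factor, were lower (-1.94, adjusted p = 1.64e-05, and -1.73, adjusted p = 3.22e-06).

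Other HSP70 family genes and HSP90 co-chaperones also went both ways. In the HSP70 family 4 of 7 were higher and 2 lower. The oocyte arrays of the 2 lower genes, HSPA1A and HSPA12B, overlapped the somatic arrays, as did those of HSPA6 among the higher. HSPA1A and HSPA12B did not differ between the oocyte and CC (adjusted p = 0.46 and 0.118). HSPA12B was above background on 4 TH, 2 GC, 1 CC and 1 oocyte arrays. HSPA4L, a relative of HSPA4 and HSPH1, was at least 21.8-fold higher in the oocyte (above background on 0 TH, 3 GC and 2 CC arrays), and HSPA1L was higher by 2.22 (adjusted p = 4.27e-07). Of the HSP90 co-chaperones 6 of 12 were higher and 5 lower. The 5 included UNC45B, which was above background on 1 CC array and on no TH, GC or oocyte array. CDC37L1 was higher by 3.80 (adjusted p = 1.63e-12) and TTC4 by 2.42 (adjusted p = 2.16e-09), whereas CHORDC1 (-2.02, adjusted p = 1.90e-07) and PTGES3, the co-chaperone p23 (-1.80, adjusted p = 4.51e-09), were lower.

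Among small heat shock proteins 5 of 8 were lower and 2 higher in the oocyte. Of those lower, CRYAB, HSPB2, HSPB7 and HSPB8 were highest in TH, and their oocyte arrays overlapped the somatic arrays. Against CC alone, HSPB2 was higher in the oocyte (1.24, adjusted p = 0.00197) and HSPB7 lower (-1.15, adjusted p = 0.036). CRYAB and HSPB8 did not differ from CC (adjusted p = 0.645 and 0.425). HSPB7 and HSPB8 were above background on no CC or oocyte array. HSPB6 was lower as HSPB1 was (-3.21, adjusted p = 3.30e-09), and HSPB3 and HSPB9 were at least 6.01-fold and 3.85-fold higher, with HSPB3 above background on 2 TH arrays, HSPB9 on 1 CC array and neither on other somatic arrays of the cell types. Of the mitochondrial chaperones 7 of 11 were higher and 3 lower. CLPX, the unfoldase of a matrix protease, was higher by 3.21 (adjusted p = 6.59e-13) and GRPEL1, the exchange factor of mitochondrial HSP70, by 2.73 (adjusted p = 8.30e-10). HSPA9, the mitochondrial HSP70 itself, was lower (-1.47, adjusted p = 8.03e-07), as was the protease LONP1 (-1.32, adjusted p = 1.25e-06).

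In the cytosolic chaperonin CCT and prefoldin 7 of 14 were higher and 5 lower. CCT subunits work together in rings. CCT5 was higher by 1.99 (adjusted p = 6.72e-08) and CCT4 was lower (-1.68, adjusted p = 3.54e-09). VBP1, a prefoldin subunit, was higher by 1.66 (adjusted p = 7.66e-09) and PFDN5 lower (-0.96, adjusted p = 0.000222). Of the other heat shock factors and their binding proteins, 3 of 5 were lower and 2 higher. HSF2 was lower (-2.35, adjusted p = 3.24e-11, above background on 3 oocyte arrays) and so was HSF4 (-1.91, adjusted p = 1.34e-07), whereas HSF1 was higher, and HSF2BP was higher by 2.27 (adjusted p = 2.38e-08).

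After IVM the median difference of the 77 in CC was 0.39, compared with 0.52 over the 10 heat shock genes and 0.37 over all genes. Of the 77, 26 were higher and 10 lower, against 30.3% and 15.5% of all genes. These shares are near those of all genes, which also stand beside the counts of each list after IVM. The 26 included HSPA12A, CRYAA, HSPB3 and HSF5, which were above background on no array of CC or of CC after IVM. With quantile normalization 19 were higher and 12 lower, and with the deposited values 26 and 16. The HSP70 co-chaperones had 10 of 20 higher and 2 lower. DNAJC6 was at least 3.38-fold higher (not well above background on any CC array, above it on all 4 after IVM) and DNAJA4 higher by 1.82 (adjusted p = 0.000103), while STUB1 (-1.28, adjusted p = 0.00324) and DNAJB4 (-1.22, adjusted p = 0.00413) were lower. CCT and prefoldin had 6 of 14 higher and none lower, led by VBP1 (1.24, adjusted p = 0.00153) and CCT5 (1.18, adjusted p = 0.00155).

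The mitochondrial chaperones had 3 of 11 higher and 2 lower after IVM. HSPA9 was higher by 1.81 (adjusted p = 0.000186) and GRPEL1 by 0.96 (adjusted p = 0.00401), in the same direction as HSPD1 and HSPE1, and TRAP1, the mitochondrial HSP90, was lower (-0.77, adjusted p = 0.014), as was CLPP (-0.51, adjusted p = 0.0468). Of the HSP90 co-chaperones 2 of 12 were higher, CHORDC1 by 1.84 (adjusted p = 0.000146) and PTGES3 by 0.83 (adjusted p = 0.00582), and 2 lower, among them FKBP5 (-0.84, adjusted p = 0.00926).

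Of the factors 2 of 5 were higher and 1 lower: HSF2 rose by 2.39 (adjusted p = 0.000102) and HSF2BP fell (-0.73, adjusted p = 0.0201). The other factor called higher, HSF5, was above background on no array of CC or of CC after IVM. In the HSP70 family 1 of 7 was higher and 2 lower. The gene called higher was HSPA12A, also above background on none of these arrays. HSPA1A, the classic stress-inducible HSP70, was lower after IVM (-2.68, adjusted p = 0.000961), while HSP90AA1 and HSPH1, which are also stress-inducible, were higher in the same samples. Of the small heat shock proteins 2 of 8 were higher and 1 lower, and the one that fell was HSPB2 (-1.45, adjusted p = 0.0236). Those called higher, CRYAA and HSPB3, were likewise above background on no array of CC or of CC after IVM.

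**Figure D5:**
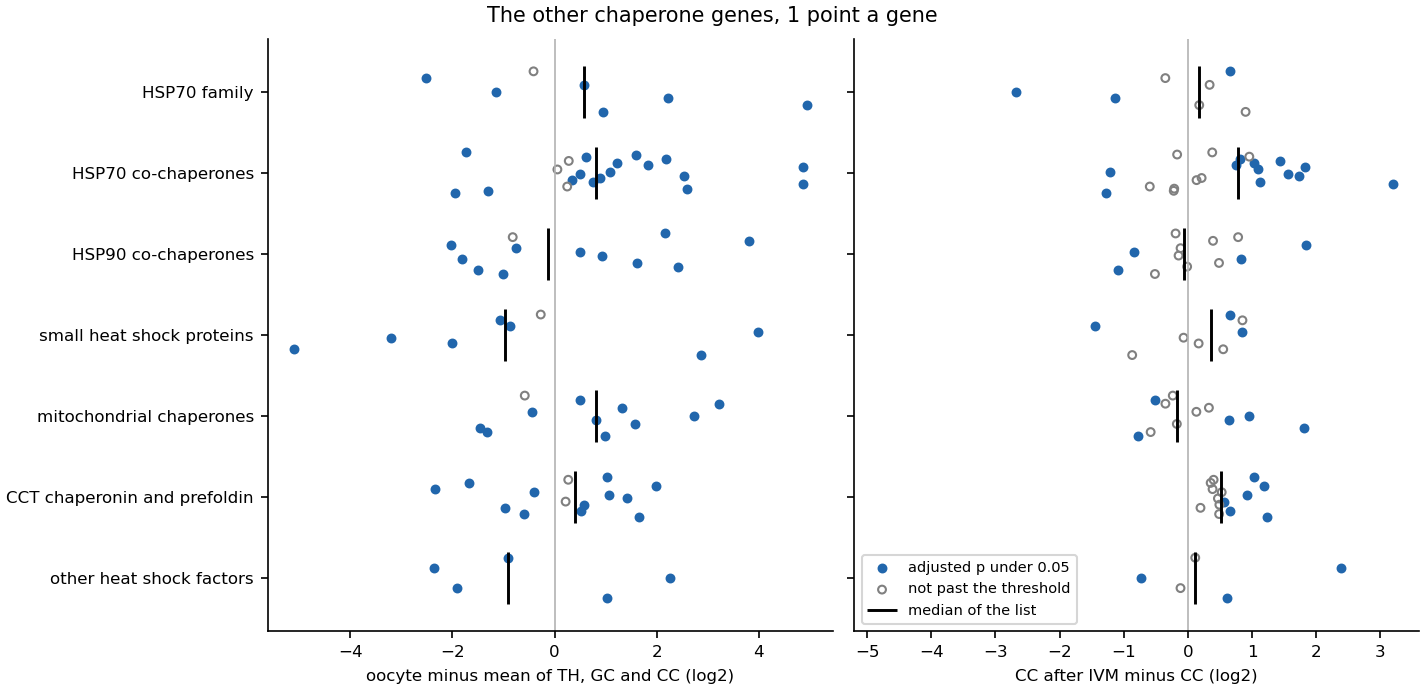
Oocyte minus the mean of the somatic cell types (left) and CC after IVM minus CC (right), both in log2, for the 77 other chaperone genes in 7 lists, with 1 point a gene, filled where the adjusted p was under 0.05, and a line at the median of each list. HSP70 co-chaperones lie mostly to the right of 0 in both panels. Of these 14 of 20 were higher in the oocyte (32.9% of all genes) and 10 of 20 higher after IVM (30.3% of all genes).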

How the data were processed

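Gene expression was measured on 20 arrays, 4 in each of 5 groups taken from the sample titles. For each array the authors deposited the spot table of Agilent Feature Extraction 10.7.3.1 (1 colour, Cy3, probes annotated on UMD 3.1), with a processed intensity per spot that was background-subtracted and detrended but not normalized between arrays. They also deposited a table of log2 values, which equalled log2 of the median pixel signal minus the median of the array, within 5.0e-09.

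Here each array's 75th percentile was subtracted from log2 processed intensity, outlier spots were left out (at most 23 an array), and the median over the spots of a gene was used. Of 9779 probes without a name, 734 were named by accession from RefSeq. Linear models with moderated variances came from limma 3.58.1 under R 4.3.3, with its package data.table (1.17.8) for input. Adjustment was by Benjamini-Hochberg over all 22550 genes, at a threshold of 0.05. Cell types were fitted on 16 arrays, IVM against CC on 8, and the order of groups on 20. Replicate numbers were taken to pair TH with GC and no other groups. Deviations from the group means of TH and GC correlated by 0.12 to 0.34 in all 4 same-numbered pairs. Those of GC and CC also did so in all 4, by 0.02 to 0.22. Same-numbered arrays of these groups were on the same slide, so these correlations do not tell pairing from slide. Fits were tested on simulated data, but the settings and outcome are not given here. Python 3.11.15, pandas 2.3.3, numpy 2.4.6 and matplotlib 3.10.9 served for tables and figures.

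The 10 genes and the lists were chosen with earlier results of these data known. From each list, up to 2 genes with the largest rise and 2 with the largest fall per comparison were named, among those past the threshold without overlap between groups. Where a dimmer group had a gene above background on fewer than 3 of 4 arrays, the fold is a lower bound: its arrays were set to at least their lowest signal that passed the background test. The number of arrays limits the precision. Alternatives were other scalings and background corrections, summaries of spots, filters, blocks, weights and leaving out each array.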

Additional observations from a re-analysis of the deposited data

Results flagged for a closer look

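Of the 50 groups of 4 arrays (10 genes in 5 groups), 6 had an array set apart from the other 3 by Dixon's test, and chance flags about 1 in 20 groups. Both HSP90AB1 cases were in somatic cells: TH replicate 4, whose value of 1.88 stood above a range of -0.54 to -0.27, and GC replicate 2, whose value of -0.81 stood below a range of 0.11 to 0.26. HSPB1 in CC after IVM reached 5.43 in replicate 3, above a range of 3.80 to 4.07, and without this array HSPB1 was lower after IVM (-0.98, adjusted p = 0.0252). HSPB1 in oocyte replicate 1, at -0.98, exceeded the range of -2.51 to -2.37 of the other oocyte arrays. HSPE1 in CC after IVM reached 5.95 in replicate 1, above a range of 5.11 to 5.25. HSPA8 in oocyte replicate 3, at 4.47, exceeded a range of 4.28 to 4.30, a gap that is small beside the difference from the somatic cells.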

How the results depend on the processing

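The 10 genes gave 4 to 6 lower and 3 to 5 higher in the oocyte over 15 alternatives other than leaving out an array. Quantile normalization gave 5 higher in the oocyte, 2 that differed between TH and GC (HSPA8 and HSPE1), 2 between TH and CC, 1 higher and 1 lower after IVM. HSP90AA1 in the oocyte reversed to 0.63 with quantile normalization and to 0.10 with the deposited values, and HSPA4 to -0.51 with its probe 1 alone. The deposited values gave 3 genes lower after IVM, and 16 of the other chaperones lower. Normexp background correction gave 42 of the other chaperones higher after IVM. Between TH and GC, 2 genes differed with the brightest probe, the filter on dim genes, arrayWeights, or trend and robust variances, and 0 within slide 1 or slide 2. Between TH and CC, 2 differed with the brightest probe, the filter, trend and robust variances, or the percentile of always-detected probes, 4 with arrayWeights, and 0 with all 20 arrays in 1 fit or within slide 1 or slide 2. Within slide 1, 17 of the other chaperones were lower in the oocyte. With slide as a random block 7 genes were higher after IVM. The share of all genes called is not given for each alternative, and the causes of these changes were not tested.

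With replicate number as a block (replicate block), 2 genes (HSPH1 and HSP90AA1) were higher after IVM, HSPD1 (adjusted p = 0.0553) and HSPE1 (adjusted p = 0.0824) were not called, and 6 of the other chaperones were lower. In the fit of 16 arrays the replicate block changed no call among the cell types. In fits of the TH and GC arrays only, added after seeing the data, 0 genes differed between TH and GC, without and with the replicate block. The numbers were not taken to pair the other groups. Deviations of same-numbered samples correlated between -0.13 and 0.22 over 20 other pairs of cell types. They were above 0 in all 4 pairs of GC and CC (0.02 to 0.22), GC and the oocyte (0.01 to 0.08), and CC and the oocyte (0.00048 to 0.07). Over the 4 pairs of CC and CC after IVM they correlated between -0.14 and -0.0049.

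On leaving out 1 array, genes higher after IVM ranged from 2 to 6, lower after IVM from 0 to 1, higher in the oocyte from 3 to 4, different between TH and GC from 0 to 2 and between TH and CC from 0 to 3, and 6 stayed the count of those lower in the oocyte. Of the other chaperones, 17 to 25 were higher and 6 to 9 lower after IVM, and 39 to 43 were higher and 24 to 28 lower in the oocyte. Depth is not defined for arrays. Signal over background limits HSPB1 in the oocyte, where 1 of its 4 probes was above background on 2 of 4 arrays.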
